A study of Mus musculus with 10 samples.

Results

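The expressed Zfp genes of the dentate gyrus are the 304 protein-coding mouse genes that carry a symbol of the form Zfp plus a number and averaged 200 normalized counts or more across the study's 10 libraries. They were chosen by name and by that measured mean from 394 protein-coding Zfp genes among 48526 gene identifiers in the deposited table. Of the other Zfp genes, 86 had a lower mean and 4 were left out by name. Of the 86 genes, 14 had no read in any library and 51 were high enough to be tested, of which 4 rose and 1 fell. Among all genes tested 9.65% rose and 9.36% fell (limma adjusted p below 0.05), so these 51 did not rise more often than genes in general. The 4 genes left out by name, of which 3 reached the minimum, had large differences between the groups. Zfp663 had 5.19 ± 3.04 normalized counts with GFP and 248 ± 71.3 with Sox11 (mean ± SD over 5 libraries, as throughout), Zfp184 124 ± 18.2 and 368 ± 51.5, Zfp57 358 ± 52.6 and 1571 ± 338, and Zfp46 2851 ± 178 and 6313 ± 749. The counts below therefore describe the family without these 4 genes, and the rule took the rest by name and mean level. The members just inside the minimum were Zfp119a, with a mean of 202 normalized counts, and Zfp975, with 206. Just outside were Zfp976, with a mean of 199, and Zfp185, with 198, the latter raised by GFP 3 at 662. The mean of 3 members was below 200 in the GFP group and of 0 members in the Sox11 group, so those 3 entered through their Sox11 libraries. Zfp647 was among them.

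Poly(A) RNA was sequenced from the microdissected dentate gyrus, the hippocampal field that holds the granule neurons and forms new neurons in adult life. All 10 mice were of the C57Bl/6 strain and 8 weeks old, and all had received 1 µl of adeno-associated virus of serotype 9 in the dentate gyrus of either hemisphere. In 5 mice the virus carried green fluorescent protein (GFP) and in 5 it carried Sox11, a transcription factor of the SoxC group found in newborn neurons. Neither the promoter of the viral transgene nor the time from injection to dissection is given in the sources used here. Each library is called by its column number in the authors' table (GFP 1, 3, 4, 5 and 6; Sox11 1, 2, 3, 6 and 7), and values of single libraries are given in that order. A normalized count is a read count divided by a factor for the library.

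Zfp proteins carry C2H2 zinc fingers, short folds held by a zinc ion that read bases of DNA, usually in a row. Many also carry a KRAB box, which recruits the corepressor Trim28 (KAP1) and with it the histone methyltransferase Setdb1, and such proteins are known for silencing transposable elements and for keeping imprinted genes methylated. KRAB genes arose by repeated tandem duplication and lie in clusters of similar genes, while zinc finger genes without the box tend to be older and to stand alone.

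Promoters of 2 members that rose and 2 that fell are shown to let SOX core words be read in their sequence. They belong to the largest increases and decreases that have a promoter in the RefSeq table, taken in order of size. Each is the sequence from 250 bases before to 50 bases after a start listed by RefSeq (GRCm38.p6). It is written 5′ to 3′ on the strand of the gene. In Zfp454 and Zfp658 the RefSeq start lies inside the gene as its position is given below, so part of what is printed as upstream is within that gene. Capitals mark the hexamers ACAAAG and ACAATG, core words of SOX binding sites, on either strand, so that CTTTGT and CATTGT count as well. Zfp454 (chr11:50887461-50887760, minus strand) holds 2 words and Zfp658 (chr7:43562120-43562419, plus strand) holds 1. Zfp365 (chr10:67912613-67912912, minus strand) and Zfp367 (chr13:64153150-64153449, minus strand) hold 0. They do not stand for all such members, since Zfp821 and Zfp64, the next increases by size with a promoter, hold 0 words as well.
Zfp454: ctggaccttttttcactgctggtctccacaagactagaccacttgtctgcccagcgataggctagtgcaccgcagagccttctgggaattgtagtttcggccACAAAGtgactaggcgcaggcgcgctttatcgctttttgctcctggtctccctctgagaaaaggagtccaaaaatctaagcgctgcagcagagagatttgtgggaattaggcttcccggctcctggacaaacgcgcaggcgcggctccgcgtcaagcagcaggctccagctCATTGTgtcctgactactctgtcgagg
Zfp658: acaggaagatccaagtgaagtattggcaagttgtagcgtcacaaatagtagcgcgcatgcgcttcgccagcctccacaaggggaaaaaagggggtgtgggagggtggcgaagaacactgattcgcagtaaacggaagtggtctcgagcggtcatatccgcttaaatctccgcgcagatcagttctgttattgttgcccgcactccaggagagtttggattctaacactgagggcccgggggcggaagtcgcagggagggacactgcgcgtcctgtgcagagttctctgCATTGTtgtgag
Zfp365: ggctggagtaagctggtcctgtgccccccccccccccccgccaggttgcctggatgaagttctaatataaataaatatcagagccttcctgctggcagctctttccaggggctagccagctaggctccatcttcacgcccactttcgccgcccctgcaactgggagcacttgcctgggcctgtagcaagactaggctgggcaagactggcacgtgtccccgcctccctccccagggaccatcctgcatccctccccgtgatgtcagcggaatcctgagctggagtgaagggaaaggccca
Zfp367: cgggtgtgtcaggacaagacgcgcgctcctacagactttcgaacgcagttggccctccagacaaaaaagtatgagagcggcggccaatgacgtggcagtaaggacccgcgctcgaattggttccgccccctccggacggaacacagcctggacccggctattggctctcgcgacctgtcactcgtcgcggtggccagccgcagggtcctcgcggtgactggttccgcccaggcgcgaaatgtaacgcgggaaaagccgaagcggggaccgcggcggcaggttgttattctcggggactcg

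Promoters in the RefSeq table were matched for 250 members, and 54 members had no match. Members are said to have risen or fallen where limma gave an adjusted p below 0.05, as 9.65% of all genes tested did upward and 9.36% downward. A core word stood in 28 of 61 promoters of members that rose (45.9%), so that 33 of the 61 held none. It stood in 1 of 11 of those that fell (9.09%) and in 36 of 178 of those that did not pass the test (20.2%). Over all 250 the share was 26.0%, and over all 32851 RefSeq promoters of the same length it was 28.6%. Read the other way, 28 of the 65 members with a word rose (43.1%) against 33 of the 185 without one (17.8%), and their median log2 fold changes were 0.21 and 0.06. The base composition of the promoters of members that rose was close to that of members that did not pass, with a median GC content of 55.3% and 55.7% and a median of 16 CpG pairs in either set. The 11 promoters of members that fell had medians of 52.3% GC and 9 CpG pairs. Over all RefSeq promoters the medians were 52.7% GC and 7 CpG pairs, and over the 250 promoters of members 55.7% and 16. Whether base composition bears on the word shares was not tested. The words are short and a match is a description of the letters, not of binding, and the shares were not tested against each other.

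More Zfp genes rose than fell in the libraries that received Sox11. Of the 304 members, all of which were tested, 77 rose (25.3%) and 11 fell (3.62%), while 216 did not pass (limma on log2(normalized count + 1), Benjamini-Hochberg adjusted p below 0.05 over all 17007 genes tested). Among all genes tested 9.65% rose and 9.36% fell, and among the 12088 genes averaging 200 or more 11.5% rose and 12.1% fell. The members' share of increases was thus above the background of their own expression range and their share of decreases below it. Every Sox11 library lay above every GFP library in 67 members (all genes 8.63%) and below in 9 (all genes 7.29%). At an unadjusted limma p below 0.05 the counts were 114 higher and 23 lower. No share over all genes is given at this looser threshold, so these counts cannot be set beside the shares above. As the members were chosen with earlier results of these data known, the counts describe the family and were not put to a test as a set.

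The differences were small. The median log2 fold change, Sox11 minus GFP, was 0.09 over the members, with quartiles at -0.02 and 0.22, against -0.01 over all genes tested. It was above 0 in 214 members (70.4%), against 48.5% of all genes tested and 46.7% of genes averaging 200 or more. Only 7 of the members that rose and 2 of those that fell changed by at least 1.5-fold. Because the tissue is a mixture, more cells of a type and more RNA per cell cannot be told apart.

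**Figure D1:**
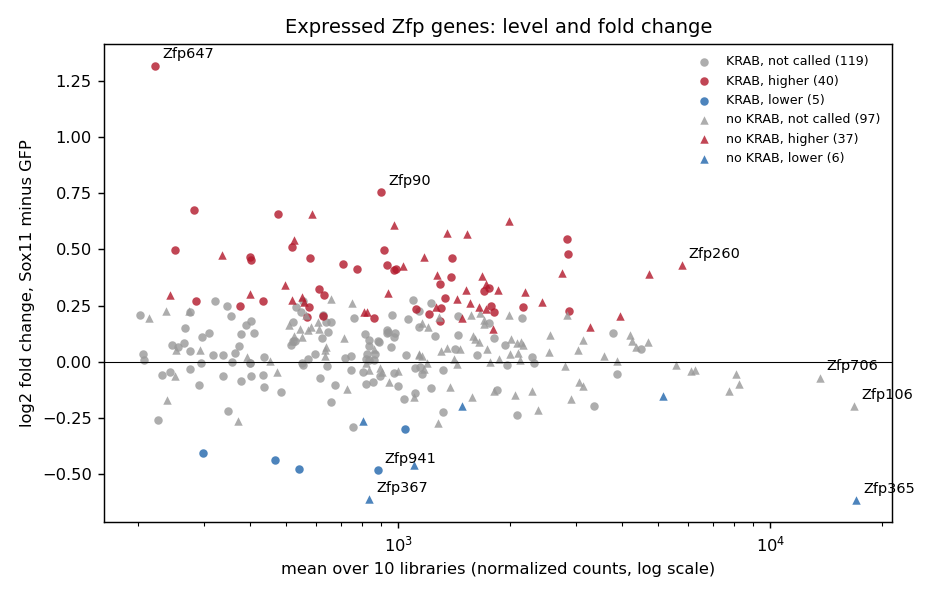
Each point is 1 of the 304 members, with the mean over 10 libraries in normalized counts (log scale) on the x axis and the log2 fold change, Sox11 minus GFP, on the y axis. Circles have a KRAB box and triangles do not, red marks the 77 members that rose, blue the 11 that fell and grey the 216 that did not pass; Zfp647 stands alone at 1.32 with Zfp90 next at 0.76, and the member with the highest mean, Zfp365, is blue.

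Zfp647, a KRAB gene with 13 fingers (ENSMUSG00000054967, chromosome 15, 76910371 to 76925448, minus strand, GRCm38), had the largest increase. It had 146, 120, 141, 117 and 109 normalized counts in GFP libraries and 312, 283, 370, 307 and 308 in Sox11 libraries. The groups did not overlap, with a wide gap between Sox11 2, the lowest Sox11 library, and GFP 1, the highest GFP library. The log2 fold change was 1.32 (SE 0.11, limma adjusted p = 2.85e-05), and it stayed between 1.26 and 1.37 when any library was left out. The GFP mean of Zfp647, 126 normalized counts, was below the minimum for members. Zfp647 is thus a member only through its Sox11 libraries, and its first place depends in part on how members were chosen.

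Zfp90, also a KRAB gene with 13 fingers (chromosome 8, 106415327 to 106426598, plus strand), followed. Its values were 637, 691, 680, 628 and 701 in GFP libraries and 1074, 1014, 1243, 1048 and 1278 in Sox11 libraries. No GFP library was above 701 and no Sox11 library below 1014. The log2 fold change was 0.76 (SE 0.07, limma adjusted p = 8.08e-05). A gene on the other strand overlaps 79.5% of the exonic bases of Zfp90, and the sources used here do not give the strand setting of the counting, so its reads may not all be its own.

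The increases of the clustered KRAB genes Zfp454 and Zfp658, whose promoters are printed above, were close in size. Zfp454 (chromosome 11, 50872720 to 50887651) had 236, 205, 187, 214 and 242 normalized counts in GFP libraries and 295, 349, 364, 365 and 359 in Sox11 libraries, a log2 fold change of 0.68 (SE 0.10, limma adjusted p = 0.000773). Zfp658 (chromosome 7, 43562256 to 43575461) had 396, 387, 318, 371 and 372 against 528, 534, 580, 665 and 606, a log2 fold change of 0.66 (SE 0.09, limma adjusted p = 0.000494). In neither gene did the groups overlap, although Sox11 1 lay below the other Sox11 libraries in Zfp454.

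The other 4 of the 8 largest increases were genes without a KRAB box and outside the clusters. Zfp711 (chromosome X, 112600526 to 112635070), whose human counterpart is an X-linked intellectual disability gene, had 453 ± 49.5 and 716 ± 78.8 normalized counts with GFP and Sox11, a log2 fold change of 0.66 (SE 0.09). Its GFP libraries ranged from 400 to 514 and its Sox11 libraries from 636 to 841. Zfp821 (chromosome 8) went from 1557 ± 115 to 2402 ± 160, a log2 fold change of 0.63. Zfp64 (chromosome 2), known as an activator of the histone methyltransferase gene Kmt2a in leukaemia cells, went from 770 ± 30.8 to 1175 ± 88.0, a log2 fold change of 0.61. Zfp358 (chromosome 8) went from 1088 ± 83.1 to 1619 ± 59.5, a log2 fold change of 0.58. The groups did not overlap in any of them, and the limma adjusted p-values were 0.000807, 9.49e-05, 7.72e-05 and 9.05e-05.

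Zfp365, known as the Disc1-binding zinc finger protein DBZ of neurons, had the largest decrease and the highest level of the family (ENSMUSG00000037855, chromosome 10, 67886103 to 67912662, minus strand). It had 17870, 19720, 24077, 20912 and 20322 normalized counts in GFP libraries and 13900, 14726, 10322, 14642 and 13767 in Sox11 libraries. Every Sox11 library was below every GFP library, and Sox11 3 was the lowest. The group means were 20580 ± 2264 and 13472 ± 1812, a log2 fold change of -0.62 (SE 0.10, limma adjusted p = 0.00222). No C2H2 finger of the searched spacing was found in its protein.

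Zfp367, a gene with 2 fingers (chromosome 13, 64133018 to 64153202), fell by 0.61 on the log2 scale (SE 0.09, limma adjusted p = 0.000724). It had 875, 1032, 1225, 925 and 988 normalized counts in GFP libraries and 692, 645, 643, 606 and 694 in Sox11 libraries. The Sox11 libraries lay close together and the GFP libraries were spread over a range about as wide as the gap between the group means. The KRAB gene Zfp941 (chromosome 7, 140807449 to 140822178) had 1078, 828, 948, 1012 and 1277 against 745, 740, 797, 676 and 694, a log2 fold change of -0.48 (SE 0.10, limma adjusted p = 0.00703). The nearest libraries, GFP 3 and Sox11 3, were 828 and 797.

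The KRAB genes Zfp931 and Zfp970 lie near the end of chromosome 2 among near copies. Zfp931 (178067695 to 178078476) went from 631 ± 68.6 to 452 ± 31.1 normalized counts and Zfp970 (177464733 to 177478129) from 538 ± 50.05 to 396 ± 26.1, log2 fold changes of -0.48 and -0.44. Their levels are uncertain, since only 60.2% of the 31-base words of Zfp931 and 32.1% of those of Zfp970 occur in the transcripts of no other gene. Zfp52, of a chromosome 17 cluster, went from 339 ± 37.2 to 256 ± 30.1, a log2 fold change of -0.41. Zfp800 went from 874 ± 39.1 to 731 ± 71.9 and Zfp280b from 1588 ± 56.5 to 1386 ± 76.1, log2 fold changes of -0.26 and -0.20. The limma adjusted p-values of these 5 genes were 0.00247, 0.00283, 0.0196, 0.0238 and 0.0167, and their groups did not overlap. Zfp800 no longer passed when GFP 4, GFP 5, Sox11 1, Sox11 2 or Sox11 3 was removed, with limma adjusted p-values up to 0.0597. The remaining 3 decreases, chosen after their values were seen, were Zfp385b (log2 fold change -0.46), Zfp933 (-0.30) and Zfp651 (-0.15). These 3 calls were not stable. Zfp385b failed the test without GFP 3, 4 or 6 or Sox11 3, 6 or 7 (limma adjusted p up to 0.0947), Zfp933 without GFP 4 or 5 or Sox11 1, 2 or 3 (up to 0.0803), and Zfp651 without GFP 4, 5 or 6 or Sox11 2, 3 or 7 (up to 0.0752).

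**Figure D2:**
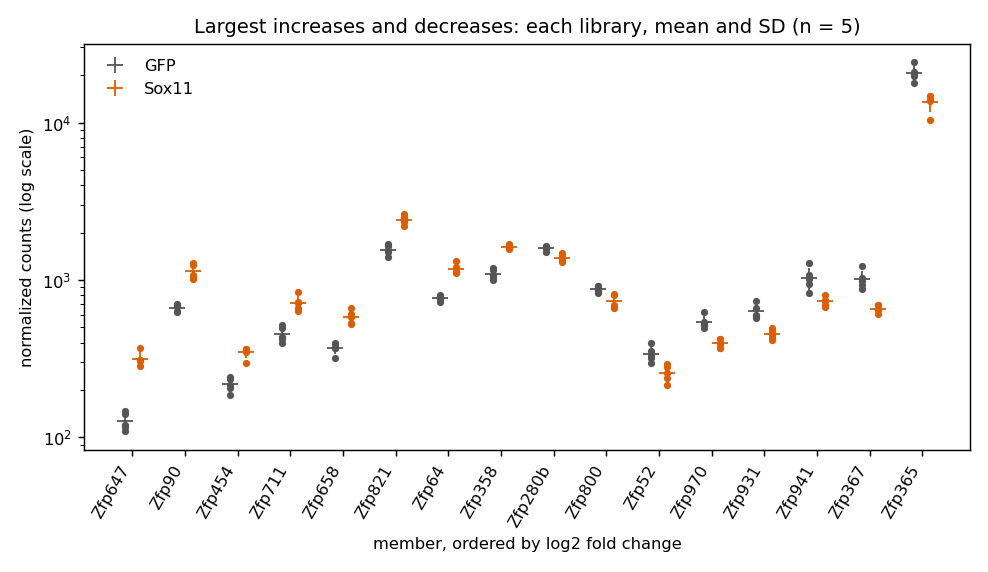
The y axis gives normalized counts on a log scale for the 8 largest increases and 8 largest decreases whose groups did not overlap, ordered by log2 fold change. Points are single libraries (grey GFP, orange Sox11), horizontal ticks are group means and vertical bars are the SD (n = 5); in each gene the orange points lie wholly on one side of the grey ones, above for the first 8 genes and below for the last 8.

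Levels within the family covered a wide range. Means over the 10 libraries ran from 202 to 17026 normalized counts with a median of 934. Levels per kilobase of exon allow a rough comparison of genes. The length is that of all annotated exons of a gene merged, so genes with long unused exons come out too low. On this scale the lowest member was at 33.5 and the highest, Zfp365, at 3271, with a median of 191. After Zfp365 came Zfp706 at 2721 per kb, a gene known to restrain Klf4 in embryonic stem cells, and Zfp106 at 1612, an RNA-binding protein needed by motor neurons and muscle. Zfp251 (1022), Zfp260 (996) and Zfp207 (839), whose product BuGZ binds Bub3, completed the 6 highest.

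Of these 6 genes, Zfp260 rose and Zfp365 fell. Zfp260, a zinc finger gene without a KRAB box known as a partner of Gata4 in heart muscle (chromosome 7, 30094777 to 30107622), had 4420, 4923, 5362, 4922 and 4871 normalized counts in GFP libraries and 6005, 5939, 6275, 7004 and 7961 in Sox11 libraries. All Sox11 libraries were above the GFP libraries, Sox11 7 most of all, and the log2 fold change was 0.43 (SE 0.08, limma adjusted p = 0.00432). Zfp706 had 13891 ± 898 and 13213 ± 238 normalized counts, Zfp251 4395 ± 339 and 4572 ± 295, and Zfp207 5599 ± 233 and 5568 ± 506, with limma adjusted p-values of 0.38, 0.594 and 0.931. Zfp106 had 17949 ± 1109 and 15684 ± 1212, a log2 fold change of -0.20 with a limma adjusted p of 0.0517. Under DESeq2 its adjusted p was 0.0134, and without GFP 1 or Sox11 6 limma gave 0.0358 and 0.0283, so that it lay at the edge of the threshold. A gene on the other strand overlaps 26.1% of its exonic length.

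Increases were most frequent at middle levels. They made up 20.0% of the 65 members with means of 200 to 500 normalized counts, 24.2% of the 99 from 500 to 1000, 33.3% of the 87 from 1000 to 2000 and 23.8% of the 42 from 2000 to 5000. Over all genes in the same ranges the shares were 10.4%, 12.0%, 13.2% and 12.0%. Among the 11 members at 5000 and over, 1 rose and 2 fell, shares of 9.09% and 18.2% next to 9.69% and 18.6% of all genes at that level. Across members the log2 fold change had a Spearman correlation of -0.05 with the mean level and -0.09 with the exon length (n = 304 genes of the same libraries, given as a description).

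**Figure D3:**
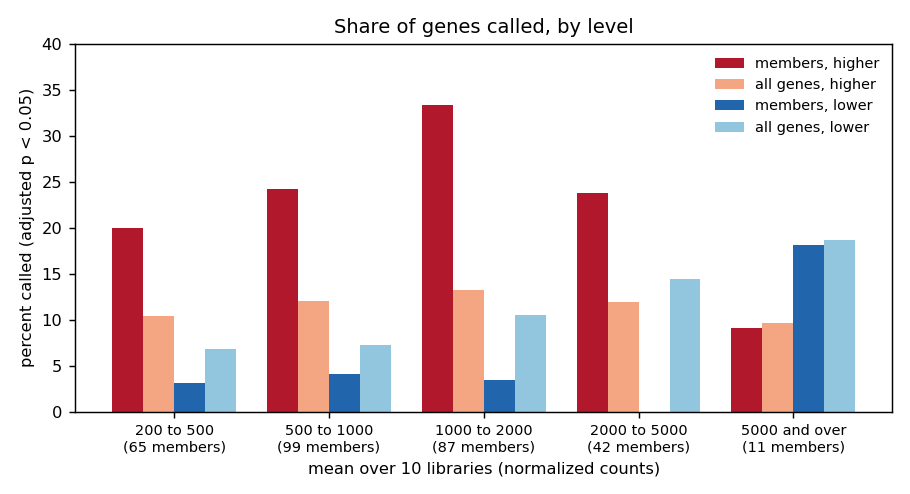
Bars give the percent of genes that rose (red) or fell (blue) in 5 ranges of mean level in normalized counts, dark for the Zfp members and light for all genes tested in that range. The dark red bar is above the light red bar in the first 4 ranges and the dark blue bar below the light blue one, while at 5000 and over the dark and light bars are of nearly equal height (9.09% against 9.69% higher, 18.2% against 18.6% lower).

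Members with a known role, listed for that role whatever their values, mostly did not pass the test. The list held 28 genes, of which Zfp36 had a mean of 177 and was no member. Of its 27 members Zfp335 rose, Zfp365 fell and 25 did not pass. Not passing was also the common outcome over all genes tested (13773 of 17007) and over the members (216 of 304). Zfp335, a gene required for neural progenitors whose loss causes microcephaly, had 1684, 1677, 1656, 1753 and 1761 normalized counts in GFP libraries and 1932, 1794, 2004, 1903 and 1813 in Sox11 libraries. These groups did not overlap, but the log2 fold change was only 0.15 (SE 0.04, limma adjusted p = 0.0376). Its call held in 2 of the 10 fits that leave out a library, those without Sox11 2 or Sox11 7, with limma adjusted p-values up to 0.0866.

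Regulators of neural development and differentiation on the list gave values without a call. Zfp521, a regulator of the entry into the neural lineage, had 633 ± 136 normalized counts with GFP and 634 ± 43.8 with Sox11. Zfp423, which acts in cerebellar and fat cell development, had 1163 ± 219 and 1044 ± 198. Zfp462 and Zfp292, whose human counterparts are neurodevelopmental disorder genes, had 1847 ± 303 and 2118 ± 193, and 2973 ± 155 and 3098 ± 385. Zfp609, a partner of the cohesin loader Nipbl in cortical neurons, had 4535 ± 203 and 4830 ± 295. Zfp804a, whose human counterpart is a schizophrenia risk gene, had 1404 ± 222 and 1153 ± 74.2, a log2 fold change of -0.27 with a limma adjusted p of 0.0967, which fell below the threshold under DESeq2 (0.0491) and without GFP 5 (0.00606). Zfp462 likewise passed without GFP 4 (limma adjusted p = 0.0464).

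Chromatin and RNA regulators were also without a call. Zfp143, a factor found at promoters that contact distant elements, had 541 ± 22.3 and 599 ± 62.3 normalized counts. Zfp410, which controls the chromatin remodeller gene Chd4, had 1127 ± 46.1 and 1151 ± 71.3. Zfp638, which silences unintegrated retroviral DNA, had 8057 ± 293 and 7396 ± 865. Zfp148 and Zfp281, relatives that bind GC-rich promoters, had 8243 ± 526 and 7951 ± 801, and 3018 ± 146 and 3241 ± 380. Zfp451, a SUMO ligase, had 4243 ± 330 and 4447 ± 436, and Zfp91, a ubiquitin ligase, 8512 ± 785 and 7967 ± 787. Zfp592 and Zfp687, found together in a complex with Zmynd8, had 2073 ± 57.1 and 2132 ± 75.04, and 2160 ± 202 and 1948 ± 85.7, while Zfp644, a partner of the methyltransferases Ehmt1 and Ehmt2, had 3528 ± 240 and 3598 ± 307. Limma adjusted p-values of these 10 genes ranged from 0.142 to 0.843.

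Among KRAB genes of known target on the list, none passed. Zfp809, which recognises a retroviral primer binding site, had 388 ± 30.7 and 366 ± 37.2 normalized counts. Zfp568, a repressor of a placental Igf2 promoter and the lowest member per kb (33.5), had 240 ± 42.9 and 252 ± 40.5. Zfp445, a keeper of imprints, had 3946 ± 169 and 3813 ± 414. Zfp110 and Zfp369, known as interactors of the p75 neurotrophin receptor, had 865 ± 119 and 912 ± 25.9, and 1207 ± 46.3 and 1308 ± 57.0. The mRNA decay factors Zfp36l1 and Zfp36l2, which carry CCCH rather than C2H2 fingers, had 1097 ± 315 and 1211 ± 191, and 905 ± 162 and 883 ± 118. Zfp36l1 was the member with the widest GFP libraries, its highest being 2.02 times its lowest, against a median of 1.18 over members, and a gene on the other strand overlaps 55.9% of its exonic length.

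Members with and without a KRAB box rose and fell in similar shares, which were not tested against each other. The box was found in 164 members, of which 40 rose (24.4%) and 5 fell (3.05%), and was not found in 140, of which 37 rose (26.4%) and 6 fell (4.29%). The median log2 fold changes were 0.10 and 0.09. Levels differed more than directions, since KRAB members had a median of 158 normalized counts per kb and the others 249. By number of C2H2 fingers, increases were 9 of the 41 members with 1 to 4 fingers, 18 of the 85 with 5 to 9, 36 of the 107 with 10 to 14 (33.6%) and 13 of the 63 with 15 or more. None of the 63 fell. The median member had 10 fingers and the longest array held 36. In 8 members no finger of the searched spacing was found, of which 1 rose and 1 fell.

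Members inside and outside genomic clusters rose about as often, while most decreases lay outside. Chaining protein-coding Zfp genes with gaps of at most 300 kb gave 32 clusters of at least 3 genes, and 30 of them held at least 1 member. Inside clusters were 157 members, of which 41 rose (26.1%) and 3 fell (1.91%), with a median log2 fold change of 0.12. Outside were 147, of which 36 rose (24.5%) and 8 fell (5.44%), with a median of 0.06. These shares were not tested against each other. The decreases are few, and the calls of Zfp385b, Zfp651 and Zfp800 outside and of Zfp933 inside were lost in some fits with a library left out. Zfp970 counts as outside because it lies more than 300 kb from the cluster of Zfp931. Clusters are named here by chromosome and a letter in order of position.

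Chromosome 7 held 77 members, of which 25 rose (32.5%) and 1, Zfp941, fell (1.30%). Over all members the shares were 25.3% and 3.62%, and over all genes tested 9.65% and 9.36%. The shares were not tested against each other, and those of single clusters rest on few genes. In cluster 7g (29768552 to 30169750) 6 of 13 members rose and none fell, with a median log2 fold change of 0.21. The call of 3 of the 6 held whichever library was left out. Its lowest p was that of Zfp790, a KRAB gene with 1114, 1151, 1164, 1155 and 1100 normalized counts in GFP libraries and 1354, 1343, 1356, 1537 and 1662 in Sox11 libraries. These groups were far apart, with Sox11 6 and Sox11 7 highest, and the log2 fold change was 0.35 (SE 0.06, limma adjusted p = 0.00355). Zfp260, described above, lies in the same cluster, as does Zfp382, the member of lowest p below 0 there, at 698 ± 88.1 and 624 ± 135 (log2 fold change -0.18, limma adjusted p = 0.413).

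In cluster 7b (6131491 to 6396915) 4 of 6 members rose, led by Zfp583, with 328, 355, 321, 335 and 328 normalized counts in the GFP and 405, 450, 475, 443 and 542 in Sox11 libraries. The groups did not overlap, and its log2 fold change was 0.47 (SE 0.08, limma adjusted p = 0.00249). In 7e (24081924 to 24587641) 3 of 11 rose, led by Zfp428 at 873 ± 63.8 and 1181 ± 166, a log2 fold change of 0.43. In 7j (127233061 to 127885996) 3 of 9 rose, led by Zfp553 at 1511 ± 53.1 and 1922 ± 112, a log2 fold change of 0.35. The limma adjusted p-values of the 2 leading genes were 0.0092 and 0.000795. None of the members in 7b, 7e and 7j fell. All 3 calls of 7j held whichever library was left out, but only 1 of the 4 in 7b and 1 of the 3 in 7e did, those of Zfp583 and Zfp428, with limma adjusted p-values of the others up to 0.0642 and 0.103. In 7d 0 of 5 members passed, although all 5 log2 fold changes were above 0.

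In clusters 7a and 7f no call held in every fit with a library left out. In 7a 1 of 5 members passed, Zfp865, whose call (log2 fold change 0.23, limma adjusted p = 0.0482) was kept in 1 of the 10 fits without a library, that without Sox11 7, with adjusted p-values up to 0.112. Exons of other genes cover part of it on either strand. In 7f 2 of 7 passed, and the one of lowest p, Zfp59, has 34.9% of its 31-base words to itself. Its values were 342 ± 9.08 and 407 ± 29.0 normalized counts, a log2 fold change of 0.25 (limma adjusted p = 0.025), and it no longer passed when GFP 5, Sox11 2, Sox11 6 or Sox11 7 was removed, with adjusted p-values up to 0.0606.

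On chromosome 9, 3 of the 5 members of cluster 9a (20345136 to 20605409) rose. Zfp266, a KRAB gene, had 2271, 2587, 2487, 2362 and 2187 normalized counts in GFP libraries and 2971, 2979, 3234, 3562 and 3883 in Sox11 libraries. No libraries overlapped and Sox11 6 and Sox11 7 were again highest, with a log2 fold change of 0.48 (SE 0.08, limma adjusted p = 0.00195). Its call held whichever library was left out, while the other two of 9a lost theirs in some of these fits, with limma adjusted p-values up to 0.0979. In the small cluster 5a (138139702 to 138619761) all 3 members rose, with a median log2 fold change of 0.43, and 2 of these calls held whichever library was left out. In 15a (76851609 to 76925448), the cluster of Zfp647, 2 of 3 rose, and the third, Zfp251, was the highest of the 3 per kb and did not pass. In cluster 6a 1 of 7 rose, Zfp282, at 1174 ± 81.6 and 1618 ± 129, a log2 fold change of 0.46 (SE 0.07, limma adjusted p = 0.000854).

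The large KRAB clusters of chromosomes 13 and 17 held few calls. In 13b (67038596 to 67827002), with 23 Zfp genes of which 15 were members, none passed, and the median log2 fold change was 0.01. Its members of lowest p were Zfp87 (891 ± 41.7 and 1034 ± 131, limma adjusted p = 0.102) and Zfp759 (504 ± 37.7 and 462 ± 68.1, limma adjusted p = 0.406). With the range of the table's column numbers as a covariate, an alternative chosen after seeing the data, Zfp87 passed (log2 fold change 0.24, limma adjusted p = 0.0233), as it did within columns 4 to 7 (0.39, limma adjusted p = 0.0118). All 15 carry the KRAB box, and the median share of 31-base words to themselves was 86.9%, against 98.9% over all members. In 17a (21383748 to 22456689) 2 of 13 members rose and 1, Zfp52, fell, with a median of -0.01. Zfp229 there had 209 ± 41.8 and 292 ± 28.5, a log2 fold change of 0.50 (limma adjusted p = 0.0228), but GFP 3 at 276 overlapped Sox11 2 at 249, and it no longer passed when GFP 5, GFP 6, Sox11 6 or Sox11 7 was removed, with adjusted p-values up to 0.0537. The other call upward in 17a also failed in some fits with a library left out (limma adjusted p up to 0.0928). In 17b (32765496 to 33631779) 1 of 13 rose, Zfp811, at 755 ± 51.1 and 1076 ± 167, a log2 fold change of 0.50 (limma adjusted p = 0.00536), and Zfp871 had 3575 ± 280 and 3123 ± 332 (log2 fold change -0.20, limma adjusted p = 0.101). With the column-number covariate Zfp871 passed as lower (log2 fold change -0.15, limma adjusted p = 0.0246).

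**Figure D4:**
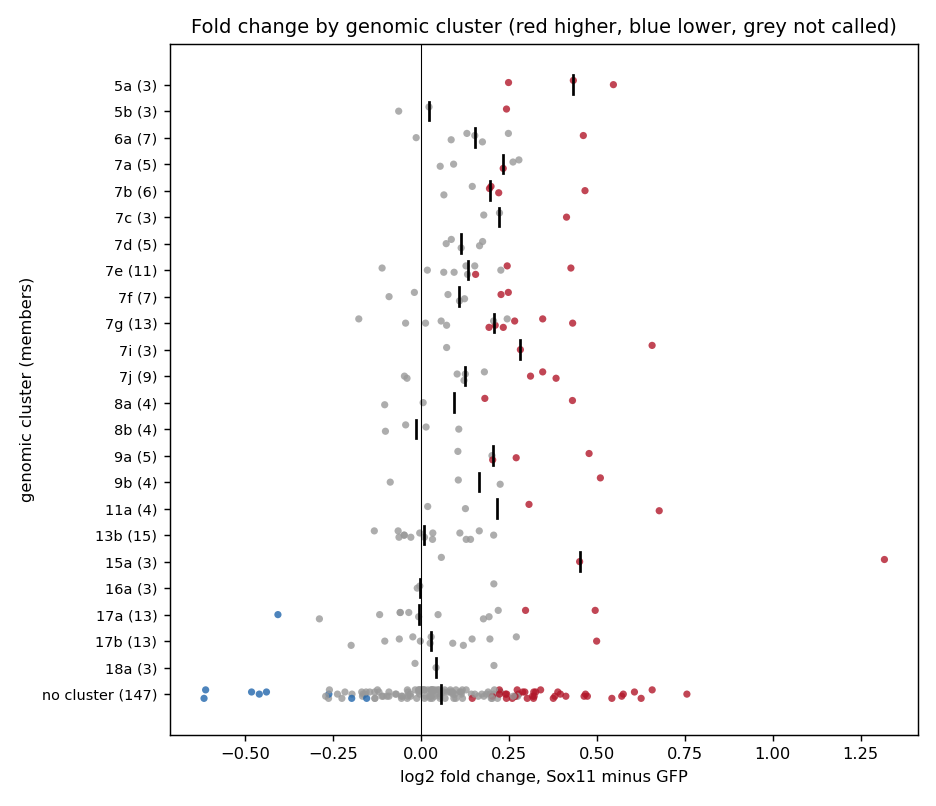
Rows are the clusters with at least 3 members (number of members in parentheses) and the 147 members in no cluster, and the x axis is the log2 fold change, Sox11 minus GFP. Points are single members (red rose, blue fell, grey did not pass) and black ticks are medians; the medians of 7g (0.21), 7b (0.20) and 9a (0.20) lie to the right of 0 and those of 13b (0.01) and 17a (-0.01) at it.

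The members' shift was not equal in all Sox11 libraries. Taken as the median over the 304 members of the log2 deviation from the mean of the GFP group, it was -0.04, -0.01, 0.04, 0.02 and -0.01 in GFP libraries and 0.06, 0.04, 0.06, 0.14 and 0.17 in Sox11 1, 2, 3, 6 and 7. The same median over all genes averaging 200 or more stayed between -0.03 and 0.02 in every library. GFP 4, at 0.04, overlapped Sox11 2, at 0.04, while Sox11 6 and Sox11 7 stood above the other 8 libraries. The sum over 5 astrocyte markers was also highest in these libraries, at 300116 and 306709 normalized counts against 212955 to 284680 in the other 8, and the granule neuron sum, at 61188 and 59011, was matched only by GFP 5 at 59999. The interneuron sum was instead lowest there, at 27593 and 23607 against 28191 to 34228 in the other 8. Oligodendrocyte sums there, 84083 and 75329, lay within the 59621 to 148576 of the other 8. The part of these markers in the members' shift was not tested. Sox11 reads themselves were highest in Sox11 3, at 20434 normalized counts, and ran from 9803 to 11591 in the other Sox11 libraries and from 1364 to 1634 in the GFP libraries, with reads of virus and mouse gene not told apart.

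Sox11 6 and Sox11 7 also carry the higher numbers in the table, and whether the numbers mark a day or a set of mice is not given in the labels. Among libraries numbered 1 to 3 (2 GFP, 3 Sox11) the median log2 fold change of the members was 0.08, and 27 of the 77 members that rose and 2 of the 11 that fell passed there. Among those numbered 4 to 7 (3 GFP, 2 Sox11) the median was 0.14, and 53 and 7 passed. With the number range as a covariate 76 of the 77 and all 11 passed. The 88 had been called on these same libraries, so these counts are no independent check of them.

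**Figure D5:**
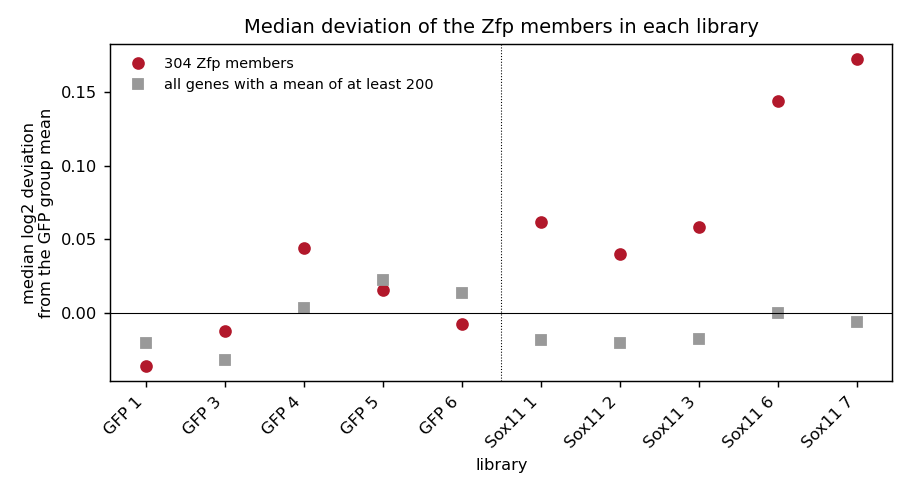
Red circles give, for each of the 10 libraries, the median over the 304 members of the log2 deviation from the GFP group mean, and grey squares the same over all genes averaging 200 normalized counts or more. The grey squares stay between -0.03 and 0.02, the red circles of the GFP libraries between -0.04 and 0.04, and those of Sox11 6 and Sox11 7 reach 0.14 and 0.17.

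Markers of several cell types differed between libraries. Summed over 5 immature neuron markers, levels were 19191 to 26037 normalized counts in GFP libraries and 40300 to 54063 in Sox11 libraries, with 3 of the 5 markers rising, for which more such cells and more of these RNAs per cell cannot be told apart. The sum over 4 granule neuron markers overlapped, at 40582 to 59999 and 42820 to 61188, with 1 of the 4 falling, so the labelled tissue's own markers were present in every library. Choroid plexus markers, 6 genes, summed to 373236 in GFP 3 and to between 658 and 3104 in the other 9 libraries. Of 5 astrocyte markers 2 rose, of 5 interneuron markers 1 fell, and of the microglia, oligodendrocyte, endothelium and leukocyte markers none passed. The part of these differences in the Zfp values was not tested. Without GFP 3 there were 68 members that rose and 12 that fell. Over all genes tested, the fits without a library gave 1282 to 1584 that rose and 1175 to 1701 that fell.

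Most genes of the KRAB corepressor machinery did not pass. Of 32 corepressor and heterochromatin genes, all tested, 22 did not pass, 7 rose (21.9%, against 9.65% of all genes tested) and 3 fell (9.38%, against 9.36%, so that the decreases were at the background); the median log2 fold change was 0.05. Trim28, the corepressor that KRAB boxes recruit, went from 6783 ± 553 to 7969 ± 523, a log2 fold change of 0.23 (SE 0.06, limma adjusted p = 0.0266), and its groups did not overlap. Setdb1, the methyltransferase that it brings, had 2599 ± 121 and 2591 ± 137. The largest increases were those of the deacetylase gene Hdac2 (log2 fold change 0.44) and of the H3K9 methyltransferase gene Ehmt1 (0.41), followed by Smarcad1 (0.29), Chd3 (0.28), Morc2a (0.26) and the heterochromatin protein gene Cbx1 (0.23). The genes that fell were Fam208a (-0.32) and Mphosph8 (-0.28), which encode subunits of the HUSH silencing complex, and Rbbp7 (-0.27), a histone chaperone. Among other zinc finger families, 6 of 39 Zbtb genes rose and 3 fell, 4 of 9 Zscan genes rose and 1 fell, 4 of 11 Zkscan genes rose and 1 fell, and 1 of 14 Klf genes rose and 3 fell. As shares, 15.4%, 44.4%, 36.4% and 7.14% of the tested genes of these families rose and 7.69%, 11.1%, 9.09% and 21.4% fell, next to 9.65% and 9.36% of all genes tested. With 9 to 39 genes a family, a share rests on few genes.

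Some members share sequence or position with other genes. Fewer than 90% of the 31-base words were their own in 45 members, of which 8 rose (17.8%) and 2 fell (4.44%), against 69 (26.6%) and 9 (3.47%) of the other 259. Zfp935, chosen after its value was seen, had 0 words of its own, so that its level cannot be told from that of its near copies. In 15 members at least 25% of the exonic bases are shared with another gene, and 6 of those rose, Zfp90 and Zfp335 among them.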

How the data were processed

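Poly(A) RNA libraries from the dentate gyrus of 10 mice were, per the labels' protocols, made with a strand-marking kit. The submitters' processing notes name GRCm38, STAR 2.5.2a, featureCounts 1.5.1, Subread, DESeq2 1.12.3, R 3.3.1, bcl2fastq 1.8.4 and cutadapt 1.9.1, with no role or order. The sources used here do not give the annotation, the strand setting or the treatment of multi-mapped reads. The values deposited by the authors are a signal, read counts divided by a factor for each library. All values above 0 (100%) were whole multiples of the value of 1 read within 0.01 reads, and the recovered totals ran from 45100154 to 68769808 reads. For Sox11 2 the value of 1 read was 0.9926. Columns were tied to groups only, because their numbers differ from those of the sample titles.

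Gene symbols and positions were taken from GENCODE M21 (GRCm38), in which 48144 of 48526 identifiers were found. Genes with a mean of at least 10 were fitted as log2(value + 1), a scale that understates changes of low genes, with limma 3.58.1 in R 4.3.3 (trend and robust, Benjamini-Hochberg, threshold 0.05). Each p-value sets the difference between the groups against the spread within them, moderated over all genes, and rests on these 10 mice alone. The recovered counts, computed from the authors' deposited values, were also tested with edgeR 4.0.16 and DESeq2 1.42.0. Other alternatives were pseudocounts of 0.5 and 8, filters, TMM scaling, plain limma, the removal of single libraries and thresholds of 0.01 and 0.1, while splits by column number were chosen after seeing the data. The test was checked on simulated counts, with 50 genes given each size of difference. Its calls reached 6% of those genes at 1.2-fold, 64% at 1.5-fold, 64% at 2-fold and 90% at 4-fold. Among 16807 genes simulated without a difference, 5 were called. Small differences were thus mostly missed in the simulation, so a gene that did not pass may still differ by a small amount.

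Fingers were counted with a C2H2 pattern, and KRAB boxes found with a HMMER 3.4 profile of 71 proteins (E-value 1e-05), in translated GENCODE coding sequences, since no protein table was used. Words of 31 bases were compared between transcripts of all genes. Members and lists were chosen with earlier results of these data known. Named genes were the 8 largest increases and decreases among called members whose groups did not overlap, the 6 highest per kb, the 2 genes on either side of the minimum, the lowest p per direction in clusters of at least 5 members, and a list of 28 genes; others were chosen after their values were seen. Python 3.11.15 was used for the remaining steps.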

Additional observations from a re-analysis of the deposited data

Results flagged for a closer look

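In 6 of 132 groups of 5 libraries examined (the named members in either group), 1 library stood apart from the other 4 by more than 0.71 of the range of the group. Chance alone flags about 1 in 20 such groups, so the number is close to what chance gives. Of the decreases, Zfp365 had 10322 normalized counts in Sox11 3, with the next library at 13767, and it still passed the test without that library. Zfp454, which rose, had 295 in Sox11 1, with the next library at 349. Zfp59 had 326 in GFP 5, with the next at 343, and its call was lost without GFP 5. Among members that did not pass, Zfp143 had 708 in Sox11 7 (next 586), Zfp809 had 441 in GFP 3 (next 387) and Zfp207 had 6003 in GFP 4 (next 5571).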

How the results depend on the processing

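The number of members that rose was 57 to 90 and of those that fell 9 to 17 over the pseudocounts, filters, scalings and tools tried, against 77 and 11. DESeq2 gave 17 that fell. A threshold of 0.1 gave 18 that fell, and 0.01 gave 40 and 5, with 816 and 721 over all genes. Leaving out a library gave 60 to 73 that rose and 7 to 13 that fell, the 7 without Sox11 3, and 1282 to 1584 and 1175 to 1701 over all genes. With column number as a covariate 18 fell. Libraries numbered 1 to 3 alone gave 28 and 2, with 563 and 406 over all genes, a fit with fewer libraries. The cause of the other differences was not tested. Where no count over all genes is given, a change in the members cannot be told from a change over all genes. Of the 88 called members 57 (50 higher, 7 lower) kept their call in all 10 fits without a library, and the same 57 did with each pseudocount, filter, scaling and tool tried at the 0.05 threshold. No named member reversed in direction with a call. TMM scaling moved the median of all genes by 0.008. Gaps of 100 and 1000 kb put 141 and 187 members in clusters, against 157, and minimum means of 100 and 400 gave 329 and 253 members, against 304. No paired analysis was possible because no column could be tied to the replicate number of a titled sample; the columns' own numbers, of which 1, 3 and 6 occur in both groups, are not explained in the labels. Members averaged at least 200 normalized counts, and differences below the spread of 5 libraries a group were not detectable.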
